A study of Mus musculus with 16 samples.

Results

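The 9 genes described here encode the core of mouse polyamine metabolism: Odc1, Oaz1, Oaz2, Azin1, Amd1, Srm, Sms, Sat1 and Smox. They were taken by symbol from a deposited table of 52997 gene symbols, and all 9 were present and counted in every library. They were selected on their place in the pathway with the measured counts of these same libraries already seen. The values of the 9 genes, and where each stood in the fits across all genes, are therefore given as a description and carry no test of their own.

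Polyamines are small, positively charged molecules (putrescine, spermidine and spermine) that bind nucleic acids and are needed for growth and protein synthesis. Ornithine decarboxylase makes putrescine, and spermidine synthase and spermine synthase extend it with aminopropyl groups. The supply is held in check by antizymes, which bind ornithine decarboxylase and send it to the proteasome, and by enzymes that acetylate or oxidise the products. T cells raise polyamine synthesis when they are activated, and spermidine is the substrate for the hypusine modification of the translation factor eIF5A.

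RNA was sequenced from regulatory T cells (Tregs), a T cell lineage that depends on Foxp3 and dampens immunity, and from whole skeletal muscle of mice aged 6 to 8 weeks. Tg Tregs came from mTreg24 TCR-tg+ Foxp3 GFP+ (B6) mice, which carry a muscle Treg T cell receptor as a transgene, and WT Tregs from mTreg24 TCR-tg- Foxp3 GFP+ (B6) mice, so a Foxp3 GFP reporter was common to all Treg groups. Tregs were sorted 3 days after muscle was injured with cardiotoxin (a fibre-killing snake venom peptide), from muscle (2 Tg and 2 WT libraries) and spleen (2 Tg and 2 WT libraries), and from the spleen of uninjured Tg mice (2 libraries). Whole muscle was taken 8 days after cardiotoxin from mTreg24 TCR-tg+ (B6) and mTreg24 TCR-tg- (B6) mice (3 libraries each). Tg Tregs were gated on the receptor chain Vβ8 and WT Tregs were not, so genotype and sort gate cannot be told apart. For WT spleen, injury is stated only in the series' design text. The promoter that drives the transgene, and whether a library holds 1 animal or several, are not stated in the labels, so the spread between libraries may be technical.

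The 10 Treg libraries held 1986700 to 9116800 counts each, and the 6 libraries of whole muscle 5095999 to 7075420. The 6 Treg markers (Foxp3, Il2ra, Ctla4, Ikzf2, Cd3e and Cd4) together gave 6117 to 7218 CPM (counts scaled by the library total) in muscle Tregs and 4410 to 4663 CPM in spleen Tregs, against 7.06 to 13.4 CPM in whole muscle, where 7 muscle fibre markers summed to 149406 to 162825 CPM. One library stood apart in a marker: WT spleen replicate 2 had a B cell marker sum of 1949 CPM, mostly from immunoglobulin kappa, against 43.2 to 147 CPM in the other 9 Treg libraries. Summed neutrophil, erythroid, fibroblast and regenerating muscle markers were each at most 9.46 CPM in any Treg library. The 2 WT muscle Treg libraries agreed least with each other. A chi-square of their counts per degree of freedom was 28.9, against 5.47 to 9.02 within the other Treg groups. WT muscle replicate 2 had the most counts of the 10 Treg libraries, 9116800, but the fewest genes detected, 17081. Values of WT muscle Tregs carry this limit. Calls of the 9 genes that changed without WT spleen replicate 2 are pointed out below. Fitted values of Myc, Ass1 and Slc3a2 are not given without that library.

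Antizymes are made by a rare mechanism that is written in their sequence. Ribosomes must skip 1 base at an in-frame stop codon in the middle of the coding sequence, and polyamines promote the skip. The annotation marks the skipped base as a 1-base gap between exons, and the 30 bases around it are shown because the frame shifts there in the Oaz1 and Oaz2 transcripts, with the stop codon in capitals. They were read from the GENCODE M21 transcripts (GRCm38, the same build as mm10), at chr10:80828280-80828309 for Oaz1 and chr9:65686257-65686286 for Oaz2, both on the plus strand.
Oaz1: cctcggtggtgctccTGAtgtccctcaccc
Oaz2: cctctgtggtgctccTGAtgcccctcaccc
The sites are the same at 28 of 30 bases, and both read TGA at the stop. The skipped base lies at 80828295 on chromosome 10 and at 65686272 on chromosome 9. Read counts per gene do not show whether ribosomes shifted frame.

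Ornithine decarboxylase, encoded by Odc1 (chr12:17544794-17551505, plus strand), makes putrescine from ornithine in the first and rate-limiting step. It had 189 and 166 CPM in Tg muscle Tregs, against 18.4 and 17.3 CPM in Tregs from the spleen of injured Tg mice. It had 116 and 110.1 CPM in WT muscle Tregs, against 15.1 and 18.4 CPM in WT spleen Tregs. All 4 muscle Treg libraries lay far above all 6 spleen Treg libraries, and both Tg muscle libraries lay above both WT muscle libraries. Tregs of uninjured Tg spleen had 15.6 and 24.0 CPM, which overlapped the injured Tg and WT spleen libraries. Group means were 177 ± 16.3 CPM in Tg muscle Tregs and 113 ± 4.07 CPM in WT muscle Tregs, against 17.9 ± 0.840 CPM in injured Tg and 16.8 ± 2.36 CPM in WT spleen Tregs (SD, n = 2 each). The 4 spleen libraries of injured mice held 30 to 83 Odc1 counts each and the 4 muscle libraries 536 to 1004.

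**Figure D1:**
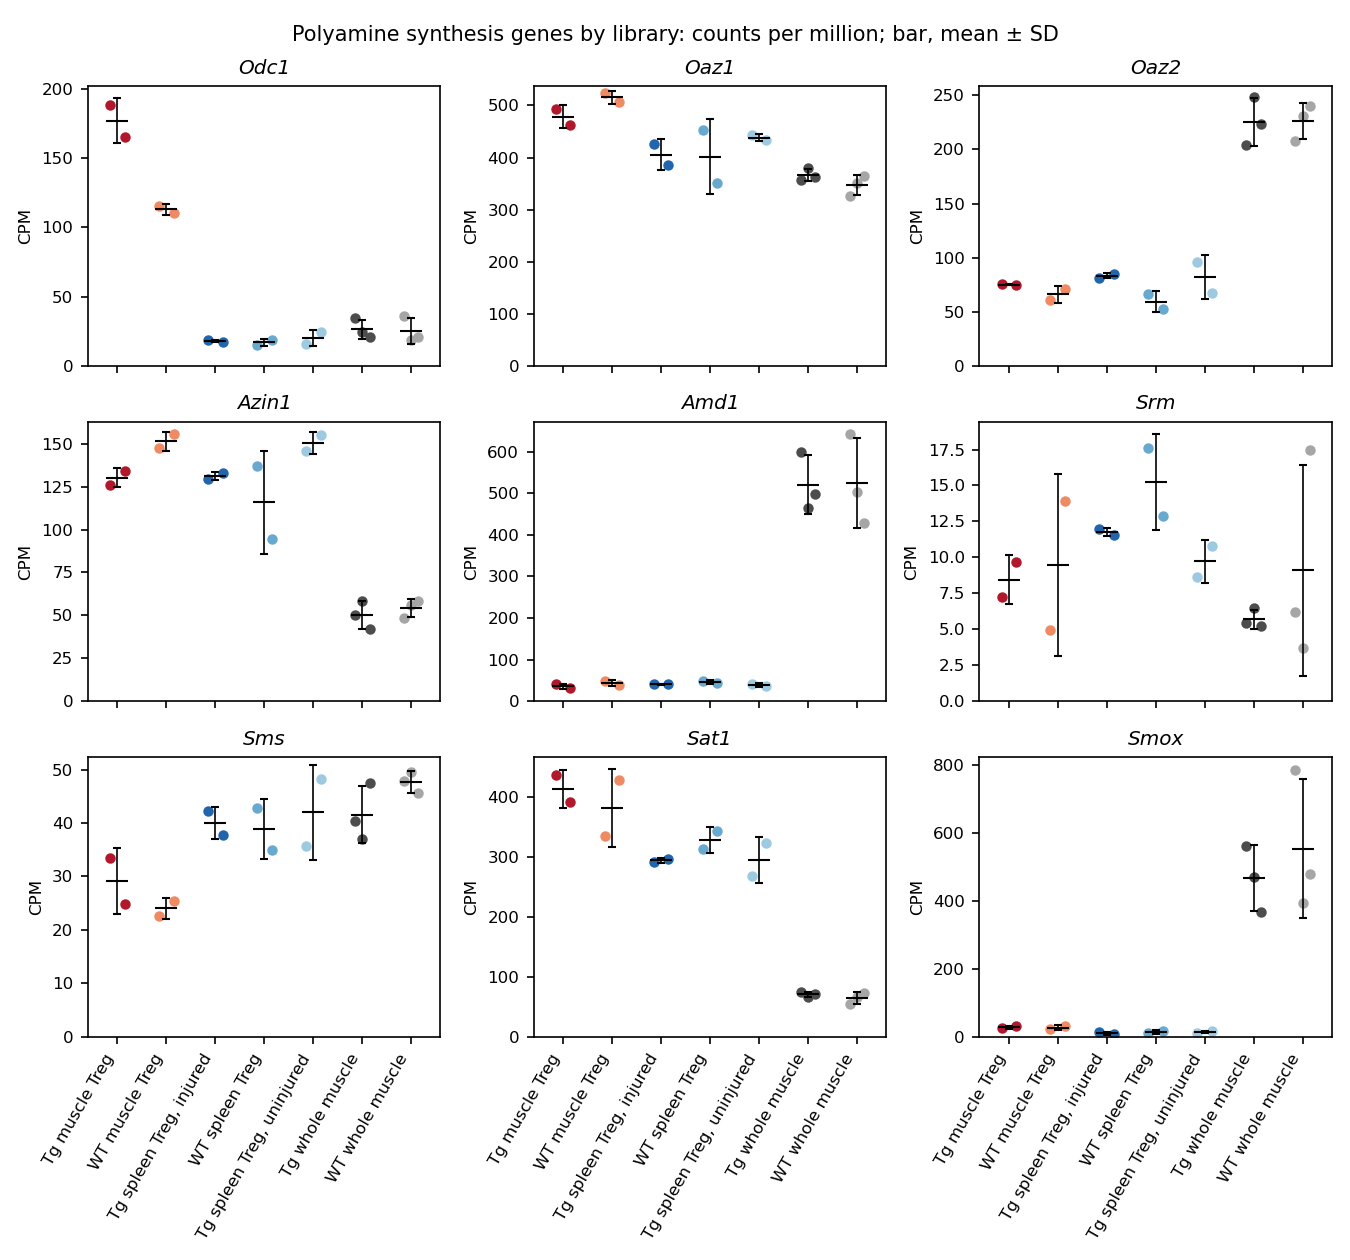
Each panel plots 1 of the 9 genes in CPM on a linear axis that starts at 0, with a point for each of the 16 libraries and the group mean with its SD. Odc1 stands at 110.1 to 189 CPM in the 4 muscle Treg libraries and at 15.1 to 24.0 CPM in the 6 spleen Treg libraries, while Smox and Amd1 are highest in the 6 whole muscle libraries.

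On the scale of the fit across all genes (edgeR, log2 fold change with an approximate SE), Odc1 was higher by 3.50 ± 0.22 in muscle than in spleen Tregs of injured Tg mice, an 11.4-fold difference. In WT Tregs it was higher by 2.91 ± 0.23, or 7.52-fold. Among the genes that passed the threshold upward (adjusted p under 0.05, Benjamini-Hochberg over 13188 genes), Odc1 was 59th by fold of 637 in Tg Tregs and 162nd of 1237 in WT Tregs. In both comparisons it passed under every alternative processing tried and without any 1 library. These fold changes use TMM scaling, while CPM uses library totals. The median gene differed by -0.04 between muscle and spleen Tregs with TMM in both genotypes, but by -0.24 in Tg and -0.23 in WT Tregs with library totals, so ratios of CPM sit below the fitted fold changes.

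Of the 9 genes, 3 passed upward and 0 downward in Tg Tregs (Odc1, Sat1 and Smox), where 4.83% of all tested genes passed upward, 2.55% downward and 7.38% in all. In WT Tregs 3 passed upward and 0 downward (Odc1, Oaz1 and Azin1), where 9.38% of all tested genes passed upward, 6.87% downward and 16.2% in all. The median log2 fold change over the 9 genes was 0.19 in Tg and 0.41 in WT Tregs, beside -0.04 for all genes in each. In CPM, muscle and spleen libraries did not overlap for 4 genes upward and 4 downward in Tg Tregs, where 16.4% and 40.9% of all tested genes were so placed. They did not overlap for 4 upward and 1 downward in WT Tregs, where 18.7% and 38.9% were. Under library-total scaling, and again in a fit of the compared groups only, Odc1 alone passed among the 9 in WT Tregs. Without WT spleen replicate 2, the library with B cell transcripts, it was also the 1 gene to pass there, and without injured Tg spleen replicate 2 it was the 1 gene to pass in Tg Tregs. No gene of the 9 is shown to respond to tissue in 1 genotype only: in the test of the tissue effect in Tg minus that in WT, 0 of 9 passed (edgeR), where 0.136% of all genes did. At an unadjusted p under 0.05 the count was also 0, beside 1046 of all genes, and with DESeq2 it was 0, beside 64. That difference was 0.60 ± 0.31 for Odc1 and 0.49 ± 0.55 for Smox, and it was -0.40 ± 0.25 for Azin1.

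**Figure D2:**
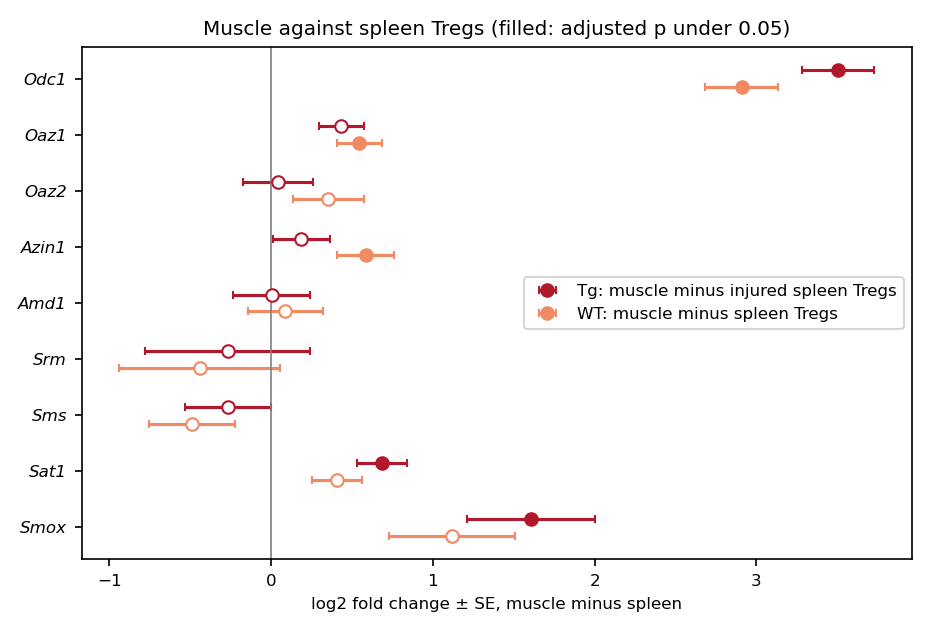
Log2 fold changes of muscle over spleen Tregs from the edgeR fit are plotted for the 9 genes, with bars of 1 SE, in Tg and in WT mice, and filled points passed an adjusted p under 0.05. Odc1 lies at 3.50 in Tg and 2.91 in WT Tregs, Smox at 1.61 and 1.12, and the other 7 genes between -0.49 and 0.69.

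The higher Odc1 in muscle Tregs went with higher sums over 11 genes known to respond to tissue dissociation (Fos, Fosb, Jun, Junb, Egr1, Dusp1, Ier2, Hspa1a, Hspa1b, Hspa8 and Atf3). Their summed level was 8932 to 9471 CPM in Tg muscle Tregs, against 2005 to 2178 CPM in injured Tg spleen Tregs. It was 8049 to 9609 CPM in WT muscle Tregs, against 1982 to 2243 CPM in WT spleen Tregs. All 11 were counted in both muscle groups and also in injured Tg spleen Tregs. Hspa1a, Hspa1b and Atf3 were at 0 in WT spleen Tregs, and Atf3 alone was at 0 in uninjured Tg spleen Tregs. The part of these 11 genes in the Odc1 difference was not tested.

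By Pearson correlation of log2(CPM + 1) over the 10 Treg libraries, the genes with patterns most like that of Odc1 were Fosl2 (r = 0.993), Tgif1 (0.992) and Nr4a1 (0.992), out of 7723 candidates with a mean log2 CPM of at least 4. Fosl2 encodes an AP-1 subunit, Tgif1 a homeodomain repressor and Nr4a1 a nuclear receptor induced early after T cell receptor signals. Nr4a1 had 2914 and 2365 CPM in Tg muscle Tregs, against 184 and 226 CPM in injured Tg spleen Tregs, and 1626 and 2070 CPM in WT muscle Tregs, against 240 and 204 CPM in WT spleen Tregs. The points share their libraries and fall into a muscle and a spleen set, so r mostly reflects the gap between the sets. Among the 9 genes, r with Odc1 over the same libraries was 0.87 for Smox, 0.85 for Sat1 and 0.72 for Oaz1, and it was -0.77 for Sms.

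The promoter of Odc1 is shown because that gene had the largest tissue difference of the 9. The RefSeq promoter table (GRCm38.p6) held 7 of the 9 genes and had no entry for Azin1 or Srm. Only bases upstream of the first GENCODE start are printed, 171 bases at chr12:17544623-17544793 on the plus strand, with GC boxes (GGGCGG on either strand) in capitals.
Odc1: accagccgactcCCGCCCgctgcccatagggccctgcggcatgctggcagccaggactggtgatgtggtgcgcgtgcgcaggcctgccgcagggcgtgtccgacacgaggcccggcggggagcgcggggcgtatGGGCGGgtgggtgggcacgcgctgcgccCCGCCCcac
The full window of 250 bases before the RefSeq start was 80% G and C and held 4 GC boxes, a motif with at least 1 match in 32.7% of 32851 promoter windows of that length. It held no E-box (CACGTG, in 6.02% of windows), no AP-1 site (TGACTCA, in 4.46%) and no CRE (TGACGTCA, in 1.55%), each searched on both strands. E-boxes are bound by Myc and its relatives. Of the 7 genes with an entry, Sms had the single CACGTG, upstream of 1 of its 2 listed starts. The letters of a window describe that window and not the factors that bind the gene. Bases after the RefSeq start, introns included, were not searched.

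The antizymes bind ornithine decarboxylase, and antizyme inhibitor binds the antizymes. Oaz1 (chr10:80826656-80829290, plus strand) encodes the main antizyme and had 494 and 463 CPM in Tg muscle Tregs, against 427 and 385 CPM in injured Tg spleen Tregs. It had 524 and 507 CPM in WT muscle Tregs, against 452 and 350 CPM in WT spleen Tregs. The muscle libraries lay above the spleen libraries of the same genotype by a small margin. The fitted difference was 0.44 ± 0.14 in Tg and 0.55 ± 0.14 in WT Tregs, and of these the WT value passed the threshold. The Tg value passed in a fit of the compared groups only (0.43). The WT value no longer passed in that fit, with library-total scaling, or without WT spleen replicate 2, the lower of the 2 WT spleen libraries (0.38). Reads of the processed copy Oaz1-ps came to 2.58% of Oaz1 counts in Tregs, and reads may be split between them. The miRNA Mir1982, which overlaps the Oaz1 exons, had 0 counts.

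Oaz2 (chr9:65668001-65690300, plus strand) encodes a second antizyme and had 75.2 and 74.6 CPM in Tg muscle Tregs, against 81.4 and 85.1 CPM in injured Tg spleen Tregs. It had 60.5 and 71.2 CPM in WT muscle Tregs, against 66.4 and 52.2 CPM in WT spleen Tregs. The WT libraries overlapped, and the Tg muscle libraries lay just below the Tg spleen libraries in CPM. The fitted differences were 0.04 ± 0.22 in Tg Tregs (-0.15 with library-total scaling) and 0.35 ± 0.22 in WT Tregs.

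Azin1 (chr15:38487427-38519266, minus strand) encodes antizyme inhibitor, a relative of ornithine decarboxylase without enzyme activity that takes up antizyme. It had 126 and 134 CPM in Tg muscle Tregs, against 129 and 133 CPM in injured Tg spleen Tregs, and these overlapped. It had 147 and 155 CPM in WT muscle Tregs, against 137 and 94.6 CPM in WT spleen Tregs. The low value in WT spleen replicate 2 is the lowest of the 10 Treg libraries. The fitted difference was 0.19 ± 0.18 in Tg Tregs (-0.01 with library-total scaling) and 0.58 ± 0.18 in WT Tregs. The WT difference passed the threshold but did not pass without WT spleen replicate 2, where it was 0.34, or without WT muscle replicate 2, where it was 0.51. The antisense gene Gm49077 overlaps 5.72% of the Azin1 exons, and the libraries do not mark strand.

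Ratios of counts within a library do not depend on scaling, and they set Odc1 against its regulators. Per Oaz1 count there were 0.382 and 0.358 Odc1 counts in Tg muscle Tregs, against 0.0432 and 0.0448 in injured Tg spleen Tregs. In WT mice the ratio was 0.221 and 0.217 in muscle Tregs, against 0.0334 and 0.0526 in spleen Tregs. Per Azin1 count there were 1.49 and 1.24 Odc1 counts in Tg muscle Tregs, against 0.143 and 0.130 in injured Tg spleen Tregs. In WT mice this second ratio was 0.786 and 0.709 in muscle Tregs, against 0.110 and 0.195 in spleen Tregs. Both ratios separated muscle from spleen Tregs in each genotype. The ratio of Azin1 to Oaz1 counts was 0.256 and 0.290 in Tg muscle Tregs, against 0.303 and 0.345 in injured Tg spleen Tregs, which did not overlap. It was 0.281 and 0.307 in WT muscle Tregs, against 0.303 and 0.270 in WT spleen Tregs, which did.

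The enzymes that extend putrescine, and Amd1, which supplies them, had low counts in Tregs and did not separate the tissues in the same way. Amd1 (chr10:40287458-40302186, minus strand) makes decarboxylated S-adenosylmethionine, the aminopropyl donor. It had 40.3 and 31.8 CPM in Tg muscle Tregs, against 41.7 and 40.4 CPM in injured Tg spleen Tregs, and 49.1 and 38.0 CPM in WT muscle Tregs, against 49.3 and 43.3 CPM in WT spleen Tregs. The fitted differences were 0.00 ± 0.24 in Tg and 0.09 ± 0.23 in WT Tregs, and with library-total scaling they were -0.19 and -0.10. The WT ranges overlapped, and in Tg Tregs both muscle libraries were slightly lower in CPM.

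Srm (chr4:148591503-148594993, plus strand), spermidine synthase, had 7.24 and 9.69 CPM in Tg muscle Tregs, against 12.0 and 11.6 CPM in injured Tg spleen Tregs. It had 4.97 and 13.9 CPM in WT muscle Tregs, against 17.6 and 12.9 CPM in WT spleen Tregs. With 21 to 127 counts per Treg library, Srm was the least precise of the 9: the fitted differences were -0.27 ± 0.51 in Tg and -0.44 ± 0.50 in WT Tregs, and the WT value was 0.14 without WT muscle replicate 1. The genes most like it over the 10 Treg libraries were Fundc1 (r = 0.934), Fas (0.895) and Zhx2 (0.888).

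Sms (chrX:157443855-157492287, minus strand), spermine synthase, had 33.4 and 24.8 CPM in Tg muscle Tregs, against 42.2 and 37.8 CPM in injured Tg spleen Tregs. It had 22.7 and 25.4 CPM in WT muscle Tregs, against 42.8 and 34.9 CPM in WT spleen Tregs. Every muscle library was below every spleen library of its genotype in CPM. The fitted differences were -0.27 ± 0.27 in Tg and -0.49 ± 0.27 in WT Tregs, and neither passed the threshold. Sms-ps held 18.7% as many counts as Sms over the Treg libraries and 10.8% to 32.0% in single ones, so the level of Sms is uncertain by shares of that size.

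Of the catabolic enzymes, Smox separated muscle from spleen Tregs in both genotypes and Sat1 in Tg mice. Sat1 (chrX:155213132-155216449, minus strand) acetylates spermidine and spermine for export or oxidation. It had 436 and 391 CPM in Tg muscle Tregs, against 292 and 297 CPM in injured Tg spleen Tregs. It had 336 and 428 CPM in WT muscle Tregs, against 313 and 343 CPM in WT spleen Tregs. The Tg libraries separated by tissue and the WT libraries overlapped. The fitted difference was 0.69 ± 0.15 in Tg and 0.41 ± 0.15 in WT Tregs. The WT difference did not pass the threshold, but it was 0.63 and passed without WT muscle replicate 1, and it was 0.18 without WT muscle replicate 2. The Tg difference passed the threshold, but with library-total scaling it was 0.49 and fell just short, and it also fell short without Tg muscle replicate 1 or without either injured Tg spleen library. The genes most like Sat1 over the 10 Treg libraries were Ss18 (r = 0.958), Ifit1 (0.945) and Trim30d (0.944). Ifit1, an interferon-induced gene, had 113 and 470 CPM in the 2 WT muscle libraries. These genes were picked for likeness to Sat1 over the same libraries, so a shared order with Sat1 is partly built in. A link of Sat1 to interferon was not tested.

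Smox (chr2:131491496-131525922, plus strand) oxidises spermine back to spermidine and gives off hydrogen peroxide. It had 25.5 and 31.3 CPM in Tg muscle Tregs, against 13.4 and 8.04 CPM in injured Tg spleen Tregs. It had 21.8 and 32.7 CPM in WT muscle Tregs, against 10.6 and 17.5 CPM in WT spleen Tregs. The libraries separated by tissue in both genotypes. The fitted difference was 1.61 ± 0.39 in Tg Tregs, which passed the threshold, and 1.12 ± 0.39 in WT Tregs, which did not. The WT difference passed without WT muscle replicate 1 (1.42) and with no low-count filter (1.14), and it was 0.74 without WT muscle replicate 2. The Tg difference was not called without Tg muscle replicate 2 or without injured Tg spleen replicate 2. The 7 fibre markers summed to 125 to 162 CPM in Tg muscle Tregs, against 220 to 260 CPM in injured Tg spleen Tregs, and to 35.1 to 40.9 CPM in WT muscle Tregs, against 107 to 119 CPM in WT spleen Tregs. Within each genotype this sum was lower in muscle than in spleen Tregs. In uninjured Tg spleen it was 222 to 286 CPM with Acta1, Mb, Myh1 and Myh4 at 0, so it came there from Ckm, Ttn and Eno3 alone. Levels of single markers are not given, so the sum does not order the groups by fibre RNA. Single fibre markers did not all go the same way. Mb was at 0 in every Treg group. Acta1 was at 0 in the 3 spleen Treg groups and counted in both muscle Treg groups. Myh4 was at 0 in both muscle Treg groups and uninjured Tg spleen, and counted in injured Tg and WT spleen Tregs. Myh1 was counted in WT muscle Tregs alone. The 8 macrophage markers summed to 10.2 to 29.0 CPM in muscle Tregs, against 92.8 to 168 CPM in spleen Tregs of injured mice. The part of fibre or macrophage RNA in the Smox difference was not tested.

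Per kilobase of the longest coding transcript, levels can be set roughly side by side between genes. The annotation used for counting is not stated, so this length is a choice, and the order of genes may depend on it. All exons together span 2558 bases for Oaz1, against 1071 in that transcript. For Sat1 they span 2774 against 1162, and for Odc1 3405 against 2208. In Tg muscle Tregs Oaz1 stood highest at 447 ± 20.3 CPM per kb, followed by Sat1 at 356 ± 27.3 and Odc1 at 80.2 ± 7.37 (SD, n = 2). Oaz2 followed at 40.6, Azin1 at 26.7, Smox at 12.4, Amd1 at 11.3, Sms at 7.83 and Srm at 6.33 CPM per kb. Libraries of neighbours in this order did not overlap, except Smox with Amd1 and Sms with Srm. In injured Tg spleen Tregs Oaz1 and Sat1 again led, at 379 ± 27.6 and 253 ± 3.27 CPM per kb, but Odc1 at 8.08 ± 0.38 lay below Amd1, Sms and Srm and above Smox alone. Odc1 was the third highest of the 9 in WT muscle Tregs as well, at 51.2 ± 1.84 CPM per kb, against the eighth highest in WT spleen Tregs, at 7.59 ± 1.07, where it overlapped Smox. In Tregs of either tissue the antizyme Oaz1 was thus above Odc1 at the level of RNA per kb.

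**Figure D3:**
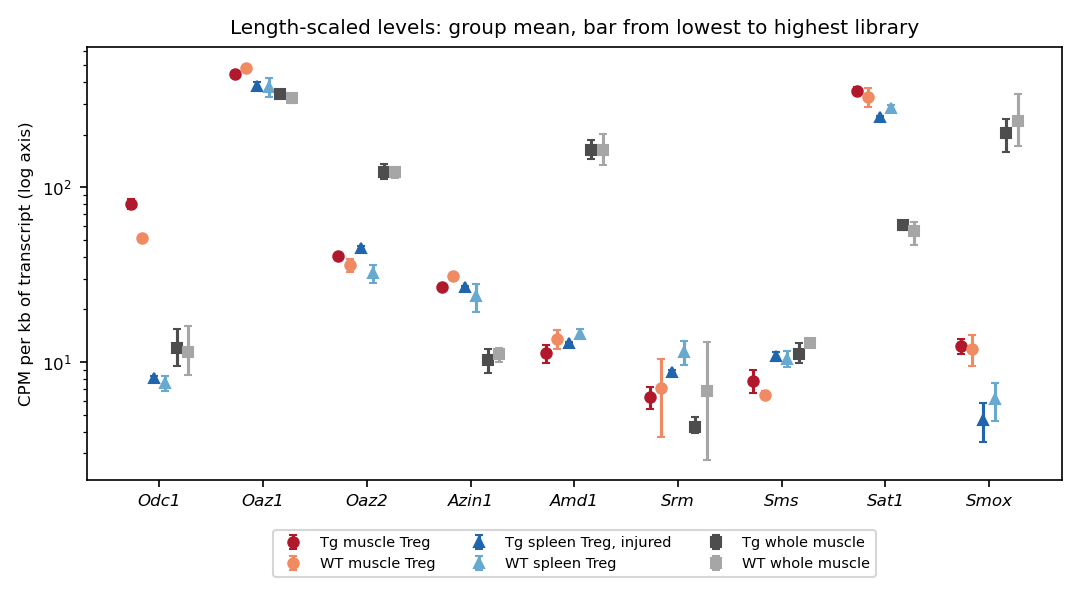
Group means in CPM per kb of transcript are plotted on a log axis for the 9 genes in 6 groups, with bars from the lowest to the highest library. Odc1 is the third highest gene in muscle Tregs (80.2 in Tg and 51.2 in WT), and Smox and Amd1 are above it in whole muscle.

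The comparison of genotypes asks whether the transgenic receptor, or the gate that goes with it, alters these genes. In muscle Tregs 0 of the 9 passed the threshold in Tg against WT, where 0.318% of all genes passed in either direction (edgeR). DESeq2 also called 0. Of the 9, Odc1 alone had an unadjusted p under 0.05, as did 1152 genes in all. This describes its place in the fit and is no test of the gene. Odc1 had the largest difference, 0.65 ± 0.19, with 189 and 166 CPM in Tg libraries against 116 and 110.1 CPM in WT libraries, which did not overlap. In CPM the libraries did not overlap for 2 genes upward and 2 downward of the 9, and the same held for 17.7% and 18.7% of all tested genes. The other 8 differences ran from -0.26 ± 0.23 for Amd1 to 0.26 ± 0.27 for Sms.

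In spleen Tregs of injured mice 0 of the 9 passed in Tg against WT, where 1.3% of all genes passed (edgeR). DESeq2 also called 0. Of the 9, Oaz2 alone had an unadjusted p under 0.05, as did 1422 genes in all, which again is a description only. Differences ran from -0.43 ± 0.40 for Smox to 0.49 ± 0.22 for Oaz2. For Odc1 the difference was 0.06 ± 0.24, and the libraries overlapped at 18.4 and 17.3 CPM in Tg against 15.1 and 18.4 CPM in WT. This comparison shares its libraries with the tissue comparisons above.

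Muscle injury left no called change of these genes in Tg spleen. Injured against uninjured, 0 of 9 passed, where 0% of all 13188 genes passed in edgeR, DESeq2 called 0 genes and 236 genes had an unadjusted p under 0.05, none of them among the 9. The differences ran from -0.48 ± 0.40 for Smox to 0.24 ± 0.51 for Srm, and Odc1 gave -0.19 ± 0.23. Smox had 13.4 and 8.04 CPM in injured Tg spleen, against 11.8 and 17.5 CPM in uninjured Tg spleen, and these overlapped.

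Whole muscle on day 8 had a different profile of the same genes. Smox had 561, 471 and 368 CPM in Tg muscle, against 783, 394 and 480 CPM in WT muscle. Amd1 had 600.1, 465 and 498 CPM in Tg muscle, against 642, 504 and 428 CPM in WT muscle. Odc1 had 34.2, 24.2 and 20.9 CPM in Tg muscle, against 35.6, 18.6 and 21.0 CPM in WT muscle. In each case the genotypes overlapped.

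Tg against WT whole muscle, 0 of 9 genes passed in edgeR or DESeq2 and 0 had an unadjusted p under 0.05. Of 12377 tested genes, 0.0323% passed in edgeR and 598 had an unadjusted p under 0.05. In CPM the libraries of the 2 genotypes overlapped for all 9. Of all tested genes, 5.77% had every Tg library above every WT library and 3.86% every one below. Differences ran from -0.69 ± 0.48 for Srm to 0.10 ± 0.14 for Sat1, and Odc1 gave 0.02 ± 0.27. Srm in WT replicate 3, at 17.5 CPM, was well above the other 5 libraries, which had 3.69 to 6.46 CPM. Without that library the Srm difference was 0.16. Fibroblast markers summed to 3998 to 6047 CPM in Tg and 2203 to 4646 CPM in WT whole muscle, with overlap. In bulk tissue, fewer cells of a type and less RNA per cell cannot be told apart.

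Treg and whole muscle libraries were made from different material on different days, so they are described by ranges only. Smox had a median of 17.5 CPM in the 10 Treg libraries, against 476 CPM in the 6 whole muscle libraries, 27.1-fold more in whole muscle. Amd1 had a median of 41.1 CPM in Tregs, against 501 CPM in whole muscle, and Oaz2 had 72.9 CPM against 227 CPM. Sat1 was 4.73-fold and Azin1 2.55-fold higher in Tregs by medians. The ranges of these 5 genes did not overlap, 2 being higher and 3 lower in Tregs, where 41.6% of 15483 genes were wholly higher and 19.7% wholly lower. Odc1, Oaz1, Srm and Sms overlapped between the 2 kinds of library. Per kb, Smox at 203 ± 42.2 and Amd1 at 163 ± 22.0 CPM were the highest of the 9 in Tg whole muscle after Oaz1, which stood at 342 ± 10.9 (SD, n = 3). Odc1 there stood at 12.0 ± 3.14 CPM per kb.

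Around these enzymes, 42 further genes in 5 lists (ornithine supply, polyamine catabolism and transport, hypusination, methionine and S-adenosylmethionine salvage, and the Myc network) were examined, of which 32 were tested in Tregs. The question was whether the steps that feed, use or control polyamines moved with tissue too. In Tg Tregs 3 of the 32 passed upward and 0 downward, where 4.83% and 2.55% of all tested genes did. In WT Tregs 3 passed upward and 1 downward, where 9.38% and 6.87% of all tested genes did. Their median log2 fold change was -0.02 in Tg and 0.04 in WT Tregs, close to the -0.04 of all genes.

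**Figure D4:**
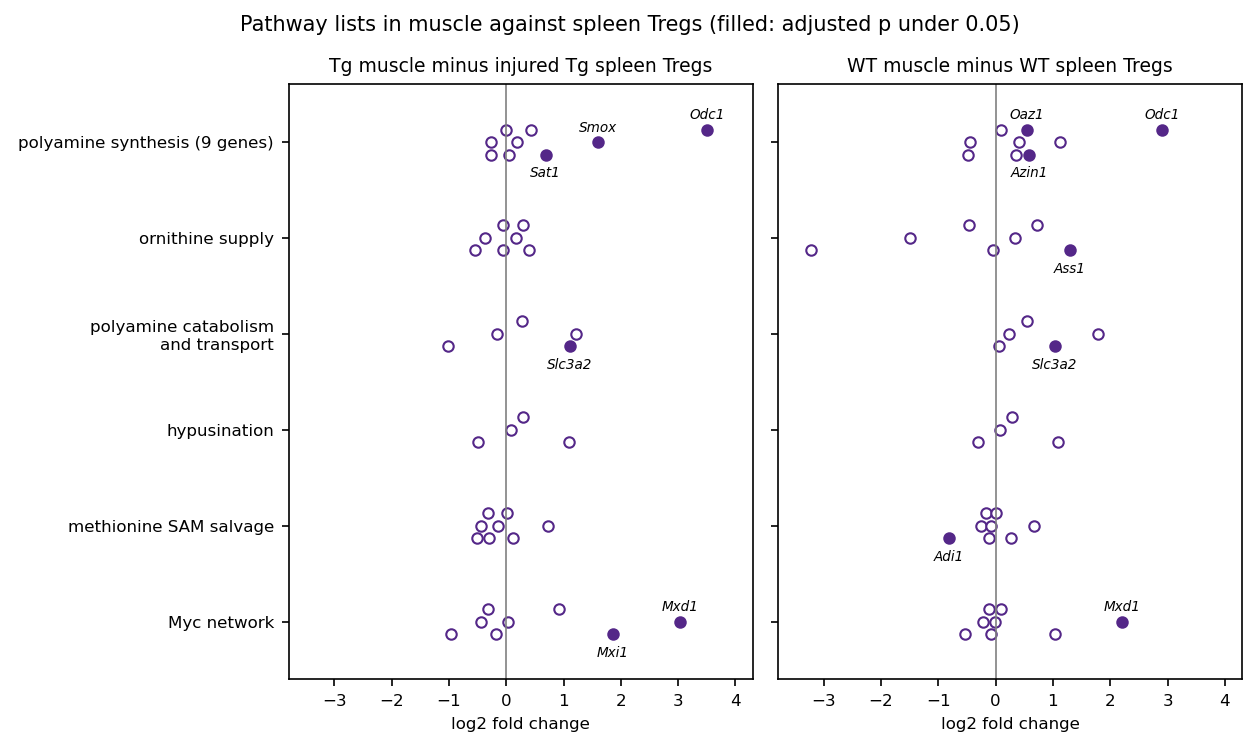
Each point is the log2 fold change of 1 gene in muscle against spleen Tregs, by list, for Tg and WT mice; filled points passed an adjusted p under 0.05 in the edgeR fit. Most points lie near 0, and Odc1 at 3.50 and 2.91, Mxd1 at 3.03 and 2.21 and Slc3a2 at 1.11 and 1.03 lie to the right in both panels.

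Slc3a2, the heavy chain of several amino acid transporters that has also been linked to polyamine transport, rose in both genotypes. It had 302 and 289 CPM in Tg muscle Tregs, against 147 and 168 CPM in injured Tg spleen Tregs (1.11 ± 0.14, adjusted p = 0.000162, edgeR quasi-likelihood test). It had 257 and 285 CPM in WT muscle Tregs, against 146 and 156 CPM in WT spleen Tregs (1.03 ± 0.14, adjusted p = 0.000203, same test). The other 4 tested genes of the catabolism and transport list did not pass in either genotype. Among them, Gpc1, a glypican linked to polyamine uptake, had 1.22 ± 1.04 in Tg and 1.79 ± 1.07 in WT Tregs. Paox, the oxidase that works on acetylated polyamines, had 18 counts in all in Tg muscle Tregs and 37 in WT muscle Tregs and could not be measured closely.

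In the ornithine supply list 0 of 7 tested genes passed in Tg Tregs with edgeR, with DESeq2 or at an unadjusted p under 0.05. Of all genes, 1132 passed there with DESeq2 and 2706 had such a p. The share of all genes that passed with edgeR was 7.38% in Tg and 16.2% in WT Tregs. In WT Tregs 1 of 7 passed: Ass1, which makes argininosuccinate on the way to arginine, had 350 and 479 CPM in muscle, against 212 and 176 CPM in spleen (1.29 ± 0.18, adjusted p = 0.000185, edgeR). In Tg Tregs Ass1 had 307 and 363 CPM in muscle, against 293 and 331 CPM in spleen, with overlap (0.30 ± 0.17). The difference between these tissue effects, -0.99 ± 0.25, did not pass (adjusted p = 0.23, edgeR), but it passed with no low-count filter (-1.02). It was -1.25 without WT muscle replicate 1. The lower WT spleen value, 176 CPM, is from replicate 2, the library with B cell transcripts. Fits without the other single libraries are not given for Ass1. The arginases, which release ornithine from arginine, were near the floor in Tregs: Arg1 had 10 counts in all in the Tg and 10 in the WT muscle libraries, and Arg2 had 7 and 3. Oat, the mitochondrial enzyme that links ornithine to glutamate and proline, had 36.6 and 34.2 CPM in Tg muscle Tregs, against 48.4 and 35.7 CPM in injured Tg spleen Tregs, and was not called.

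None of the 4 hypusination genes passed in either genotype with edgeR or DESeq2, where 7.38% of all genes passed in Tg and 16.2% in WT Tregs with edgeR. At an unadjusted p under 0.05 there were 3 in Tg Tregs (Dohh, Eif5a and Eif5a2) and 1 in WT Tregs (Eif5a2). Of all 13188 tested genes, 2706 had such a p in Tg and 3862 in WT Tregs. Eif5a, the factor that carries hypusine, had 758 and 608 CPM in Tg muscle Tregs, against 685 and 588 CPM in injured Tg spleen Tregs, and 714 and 654 CPM in WT muscle Tregs, against 788 and 677 CPM in WT spleen Tregs. The ranges overlapped in both. Fitted differences in Tg and WT Tregs were 0.08 ± 0.22 and 0.28 ± 0.22 for Dhps, which begins the modification. They were -0.49 ± 0.22 and -0.30 ± 0.22 for Dohh, which completes it. Eif5a2, a second gene for the factor, had the largest difference of the list, 1.09 ± 0.38 in Tg and 1.09 ± 0.39 in WT Tregs, and did not pass.

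The methionine list feeds the aminopropyl donor and recycles its by-product. Of 8 tested genes 0 passed in Tg Tregs with edgeR or DESeq2, beside 7.38% of all genes with edgeR. At an unadjusted p under 0.05 there were 2 (Ahcy and Mat2a), beside 2706 of all 13188 genes. In WT Tregs 1 passed downward, beside 16.2% of all genes in either direction. That gene was Adi1, a dioxygenase of methionine salvage, with 33.5 and 27.8 CPM in WT muscle Tregs, against 54.9 and 66.2 CPM in WT spleen Tregs (-0.81 ± 0.24, adjusted p = 0.0343, edgeR). It did not pass without WT muscle replicate 2, without either WT spleen library or in a fit of the compared groups only, where it ran from -0.93 to -0.66. Mat2a, which makes S-adenosylmethionine, had differences of -0.45 ± 0.17 in Tg and -0.26 ± 0.16 in WT Tregs. Mtap, which clears the methylthioadenosine left by Srm and Sms, had -0.32 ± 0.26 in Tg and -0.12 ± 0.26 in WT Tregs. Ahcy, which breaks down S-adenosylhomocysteine, had 0.73 ± 0.28 in Tg and 0.66 ± 0.28 in WT Tregs. None of these 6 values passed.

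Myc is a known activator of Odc1 transcription, and the Mxd proteins compete with it for the shared partner Max. Myc had 148 and 126 CPM in Tg muscle Tregs, against 96.3 and 70.4 CPM in injured Tg spleen Tregs (0.91 ± 0.28, adjusted p = 0.0693, edgeR). In WT Tregs the order was the other way, with 69.6 and 117 CPM in muscle, against 125 and 187 CPM in spleen (-0.54 ± 0.27, adjusted p = 0.21, edgeR). Neither passed, and nor did the difference between them (1.45 ± 0.39, adjusted p = 0.288, edgeR). With DESeq2 the difference between them passed (1.45, adjusted p = 0.0438), as did the Tg difference, and with no low-count filter in edgeR both passed too. Without WT muscle replicate 2 the difference between them was 1.94. The higher WT spleen value, 187 CPM, is from replicate 2, the library with B cell transcripts. Fits without the other single libraries are not given for Myc. The part of Myc in the Odc1 difference was not tested.

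Mxd1, a repressor that pairs with Max, rose in both. It had 681 and 1333 CPM in Tg muscle Tregs, against 132 and 150.3 CPM in injured Tg spleen Tregs (3.03 ± 0.37, adjusted p = 0.00254, edgeR). It had 652 and 1033 CPM in WT muscle Tregs, against 206 and 211 CPM in WT spleen Tregs (2.21 ± 0.36, adjusted p = 0.0062, edgeR). Mxi1, of the same family, passed in Tg Tregs with 45.5 and 50.9 CPM in muscle, against 14.9 and 15.6 CPM in injured Tg spleen (1.86 ± 0.40, adjusted p = 0.00897, edgeR). Its WT muscle libraries, at 65.5 and 21.2 CPM, lay on either side of the WT spleen libraries. With 1 spleen library of the genotype left out, Mxd1 did not pass in either genotype (adjusted p = 0.0524 to 0.0858) and Mxi1 did not pass in Tg Tregs (adjusted p = 0.0911 and 0.0985), while the fold changes stayed between 2.20 and 3.13 for Mxd1. The remaining 6 tested genes of the list did not pass in Tg Tregs.

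In the other 4 comparisons (Tg against WT muscle Tregs, injured Tg against WT spleen Tregs, injured against uninjured Tg spleen Tregs, and Tg against WT whole muscle) 0 of the 32 tested genes of these lists passed in edgeR, beside 0.318%, 1.3%, 0% and 0.0323% of all tested genes in that order. The genes with an unadjusted p under 0.05 numbered 0, 4, 0 and 2, beside 1152, 1422, 236 and 598 of all tested genes. DESeq2 called 2 in injured Tg against WT spleen Tregs, Ass1 (0.69) and Myc (-0.91), beside 296 of all genes. It called 0 of the listed genes in the others. The 32 genes tested in whole muscle were not the same 32 as in Tregs. Slc7a2, Sat2 and Slc18b1 were tested in whole muscle only, and Arg1, Arg2 and Eif5a2 in Tregs only. In whole muscle Mat2a had 460, 340 and 381 CPM in Tg, against 444, 335 and 396 CPM in WT, and Oat had 165, 188 and 162 CPM in Tg, against 156, 187 and 200 CPM in WT. Both overlapped between genotypes.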

How the data were processed

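The authors deposited 1 table of raw read counts, all whole numbers, with 52997 gene symbols and 16 libraries. Per the submitters' processing notes, reads were aligned with STAR 2.5.4 to mm10 and counted with featureCounts; no version, annotation or strand setting is stated. Per the labels' protocols, RNA was primed from the poly(A) tail, amplified by PCR and fragmented with a transposase, a method that loses strand. The labels and the design text differ on the number of sorted cells, so none is given.

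CPM is the count over the library total, computed here. Differences were fitted with edgeR 4.0.16 (R 4.3.3) after filterByExpr and TMM scaling, with robust glmQLFit and glmQLFTest, adjusted by Benjamini-Hochberg over all tested genes at a threshold of 0.05. A single fit of 5 groups took the 10 Treg libraries (13188 genes, 5 residual df), and a separate one the 6 libraries of whole muscle (12377 genes, 4 residual df). SE is the log2 fold change over the square root of F. The 9 genes, the 5 pathway lists and the 9 marker lists were chosen with earlier results of these data known. Outside the 9, the text names 11 fixed pathway genes, called genes of each list, and the 3 genes most like Odc1, Srm and Sat1. Duplicates were looked for between libraries of the same group only, and none was found. A count of 0 allows up to 3 counts in a library, for counting error alone, since the reads carry no molecular identifiers. Lengths and coordinates are from GENCODE M21. The fit was tested on simulated data. Alternatives were RLE scaling, DESeq2 1.42.0, no low-count filter, a replicate block, the compared groups only, each library left out, and, chosen after seeing the data, library-total scaling. The GC box was added to the motif search after the first motifs were counted.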

Additional observations from a re-analysis of the deposited data

How the results depend on the processing

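Odc1 kept its direction and passed the threshold in both tissue comparisons under all alternatives run. Over the 9 genes and all comparisons, 610 of 675 alternative values kept direction and side of the threshold. The number of the 9 that passed in WT muscle against WT spleen Tregs was 3, but 1 with library-total scaling and 1 in a fit of the compared groups only; with 1 library left out it ran from 1 to 5, being 5 without WT muscle replicate 1 and 1 without WT spleen replicate 2. In Tg Tregs it was 3, but 2 with library-total scaling, 4 with the compared groups only (Oaz1 added), and 1 to 2 with 1 library left out. Of the pathway genes, 4 passed in WT Tregs, but 7 with no low-count filter and 2 to 6 with 1 library left out, and 3 passed in Tg Tregs, but 1 to 4 with 1 library left out. In injured Tg against WT spleen Tregs the count was 0, but 2 with no low-count filter, 2 with DESeq2 and 2 with the compared groups only. In the difference of tissue effects it was 0, but 2 with no low-count filter, 1 with DESeq2 and 0 to 1 with 1 library left out. With library-total scaling the Amd1 difference in WT Tregs turned to -0.10, and in Tg Tregs Oaz2 turned to -0.15, Azin1 to -0.011 and Amd1 to -0.19. Amd1 in Tg Tregs was -0.0018 with the replicate block and -0.0049 with the compared groups only. Oaz2 in injured against uninjured Tg spleen was 0.028 with library-total scaling, 0.0017 with no low-count filter and 0.0033 with the replicate block. The cause was not tested. Whether the replicate numbers pair the libraries is unknown. Same-numbered Treg libraries correlated at -0.042 to 0.094 in their deviations from group means. With 2 libraries per group there is only 1 such value, with its mirror image, per pair of groups, so it cannot decide this. Under the replicate block the counts of the 9 genes were unchanged at 3 and 3, and Odc1 stood at 3.51 in Tg and 2.92 in WT Tregs.

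With 1 library left out, differences that did not pass changed sign as follows, each given as its lowest and highest value; the lone library of a group was then assumed to vary like the other groups. In Tg muscle against injured Tg spleen Tregs Amd1 ran from -0.17 to 0.17. In WT muscle against WT spleen Tregs Amd1 ran from -0.034 to 0.23 and Srm from -1.45 to 0.14. In Tg against WT muscle Tregs Sat1 ran from -0.100 to 0.35, Smox from -0.25 to 0.44 and Srm from -0.75 to 0.83. In injured Tg against WT spleen Tregs Azin1 ran from -0.069 to 0.47, Oaz1 from -0.16 to 0.21, Odc1 from -0.050 to 0.23, Smox from -0.84 to 0.014 and Sms from -0.10 to 0.19. In injured against uninjured Tg spleen Tregs Amd1 ran from -0.085 to 0.19, Oaz2 from -0.26 to 0.28, Odc1 from -0.44 to 0.14, Sat1 from -0.15 to 0.082 and Sms from -0.29 to 0.11. In the difference of tissue effects Amd1 ran from -0.27 to 0.067, Oaz1 from -0.31 to 0.055, Sms from -0.012 to 0.41 and Srm from -0.40 to 1.18. In whole muscle Amd1 ran from -0.18 to 0.16, Oaz2 from -0.13 to 0.066, Odc1 from -0.19 to 0.41, Smox from -0.52 to 0.084 and Srm from -1.09 to 0.16.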
